A study of Mus musculus with 12 samples.

Results

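E29 is a compound, known here by its code alone, that was given to activated BV2 cells, an immortalised line of mouse microglia. Its single array was set against 5 activated references, namely the activated control and the arrays of compounds E14, E18, E21, E23, with the non-activated control showing the direction of activation. These 7 arrays were chosen from the 12 of the study, and every one of the 25697 probes was kept. E14, E18, E21 and E23 were taken as references because earlier results on these arrays had placed them closest to the activated control, and E29 was singled out because it lay farthest from it. The size of the gap between E29 and the references is therefore a description and not a test.

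The non-activated control received no stimulus. The activated control received bacterial lipopolysaccharide (LPS) at 1 µg/ml and interferon-γ at 10 ng/ml, and the compound arrays came from cells given the same stimulus plus 1 compound for 4 h. Nothing in the labels states the compounds' doses, vehicle or identity, and all cells were of 1 line. Each condition had 1 array, so no value below has a replicate check, and the references are given one by one and not averaged as replicates.

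Microglia are the resident macrophages of the brain. LPS is sensed by Toll-like receptor 4, whose adaptors MyD88 and TRIF switch on the transcription factors NF-κB, AP-1 and IRF3. Interferon-γ acts through its own receptor and the kinases JAK1 and JAK2. Its target genes, Irf1 among them, carry GAS elements or interferon-stimulated response elements (ISRE) in their promoters, and IRF proteins act through the latter. Together the stimuli give the classical inflammatory state, with cytokines, chemokines, inducible nitric oxide synthase and antiviral proteins. Feedback inhibitors such as IκBα, A20 and the SOCS proteins are induced by the same factors.

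The E29 array detected 8651 probes (33.7%), within the range of 8538 to 9493 over the 12 arrays. All 6 microglial markers with a probe were detected, and their summed intensity was 7081 in E29, 4836 to 5432 in the references and 6750 in the non-activated control. Markers of astrocytes, neurons, fibroblasts and T cells lay at or below an intensity of 50 on all 12 arrays. Only 1 of 3 oligodendrocyte markers with a probe was detected, on some arrays. In such bulk RNA, fewer cells of a type and less RNA per cell cannot be told apart.

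Transcripts that fell in E29 outnumbered those that rose. Of 10576 probes tested, 643 (6.08%) were at least 2-fold lower in E29 than in every one of the 5 references, and 266 (2.52%) were at least 2-fold higher. Tested probes were those with an intensity above 50 on 1 or more of these 6 arrays, and intensities under 50 were raised to 50 before ratios were taken. The lower probes included 518 named genes and the higher ones 211. At the level of genes, each read by its brightest probe, 486 of 7302 fell (6.66%) and 189 rose (2.59%), with a median difference of 0.0713 on the log2 scale over all of them. A gene is said below to have fallen or risen where its brightest probe passed this rule, and folds are E29 against the median of the references. Where E29, or some or all of the references, did not detect a probe, the array's detection limit stood in and the fold is given as "at least".

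The same rule found few probes on the other activated arrays. The activated control stood apart from the other 4 references at 12 probes, or 0.118% of 10169. E14, E18, E21 and E23 each stood apart at 0 probes, which their choice as like arrays favours. Among the compounds outside the reference set, E20 stood apart from the 5 references at 6 probes (0.0585%), E4 at 11 (0.107%), E5 at 11 (0.107%), E33 at 24 (0.233%) and E19 at 27 (0.262%). The non-activated control was lower than all 5 references at 665 probes (6.27%) and higher at 427 (4.03%). In both directions together, E29 thus stood apart at 909 probes (8.59%) and the non-activated control at 1092 (10.3%).

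**Figure D1:**
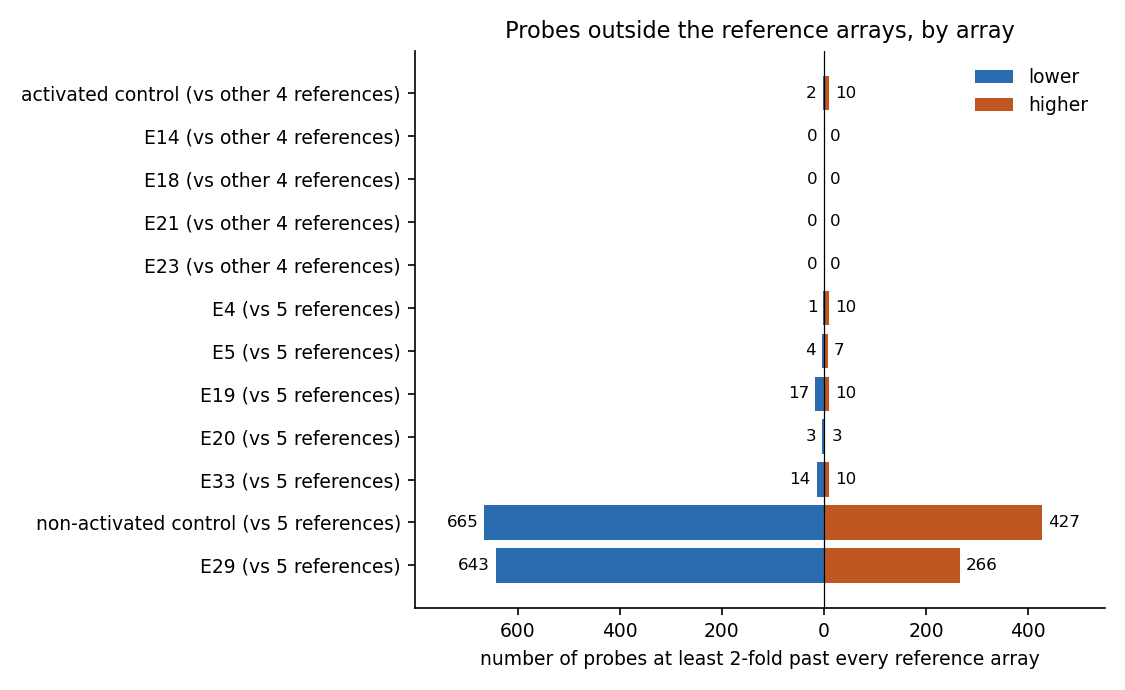
Number of probes at least 2-fold higher or lower than all 5 references (or, for a reference, than the other 4) on each array, 1 array per condition. E29, with 266 higher and 643 lower probes, and the non-activated control, with 427 and 665, stand far from the other activated arrays, which have 27 or fewer in all.

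The call did not turn on a single reference. Taken against each reference on its own, E29 was at least 2-fold lower at 868 (E23) to 974 (E18) probes and higher at 446 (E23) to 559 (E18). Against the median of the references, 889 probes (8.41%) were lower and 437 (4.13%) higher, and against the activated control 966 (9.5%) were lower and 497 (4.89%) higher. Of 1936 genes with several tested probes, 242 had at least 1 called probe, 91 had every probe called and 0 had probes called in opposite directions. At 1.5-fold in place of 2-fold, falls and rises were about equal in number, with 1733 lower and 1722 higher against the reference median and 1828 and 1841 against the activated control. At the edges of the rule, the last lower probe inside it (Nae1) was 2.0027-fold below the nearest reference and the first outside it (Rcan1) 1.9999-fold. On the higher side these were 2.0011-fold (Rasgrf1) and 1.9932-fold (Ikbip).

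Falls were found among bright transcripts and rises mostly among dim ones. For probes with a reference median of 50 to 200, 200 to 1000, 1000 to 5000 and over 5000, the share lower in E29 was 3.66%, 8.97%, 8.71% and 10.7%. The share higher was 3.5%, 1.29%, 0.125% and 0% in the same classes, and 6.98% where the reference median was under 50, a class in which a fall cannot be seen. Nor can a fall be called where the lowest reference is less than 2-fold above the floor of 50. Part of the 50 to 200 class is thus barred too, and the lower share of falls among dim probes follows in part from the rule. The brightest single intensity on the E29 array was 17497, against 17771 to 19352 on the references.

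Much of what LPS and interferon-γ had raised was lower in E29, but not all of it. Activation raised 822 probes, in that the median of the references lay at least 2-fold above the non-activated control. Of these, 282 (34.3%) fell in E29 and 7 rose, with a median difference of -0.876 on the log2 scale (interquartile range across probes -1.48 to -0.219). Induced probes made up 43.9% of all probes that fell, against 7.55% of all probes classified. On the other activated arrays the median over the same 822 probes lay between -0.141 and 0.0821. Both differences use the same reference median with opposite sign, so they are not independent, and with classes set by the other 5 compounds instead the E29 median was -0.826.

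The fall was not uniform over the induced transcripts. At the median induced probe, 56.7% of the log2 induction remained in E29, with an interquartile range of 19.2% to 89.4%. Of 504 probes induced 2- to 4-fold, 130 fell and 49% of the induction remained at the median. Of 76 probes induced at least 16-fold, 40 fell (52.6%), 15 stayed within 1.5-fold of the references, and 77.5% of the induction remained. The median log2 difference was -0.693 in the former class and -1.22 in the latter. The larger remaining share thus went with a larger fall. Among the 282 that fell, 188 had come within 2-fold of resting cells in E29, while 78 were higher and 16 lower than that.

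Transcripts that activation had lowered showed little shift in their median, but rose more often than probes in general. Of 703 such probes, 53 rose in E29 (7.54%, against 2.44% of all 10883 probes classified) and 38 fell (5.41%, against 5.91%). They made up 19.9% of the rises and 6.46% of all probes. Their median difference was 0.163, beside 0.117 over neutral probes, which activation left within 1.5-fold, and 0.0582 over all. With classes set by the other 5 compounds the median was 0.0903, and such probes made up 18.4% of the rises. Of the 53 that rose, 45 had come within 2-fold of resting cells. Some probes changed in E29 without responding to activation, though less often than probes in general. Among 7654 probes that activation left within 1.5-fold, 224 fell (2.93%) and 157 rose (2.05%). Over all probes classified the shares were 5.91% and 2.44%. Of those 224, 197 lay at least 2-fold below the non-activated control as well, and of those 157, 129 lay at least 2-fold above it.

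**Figure D2:**
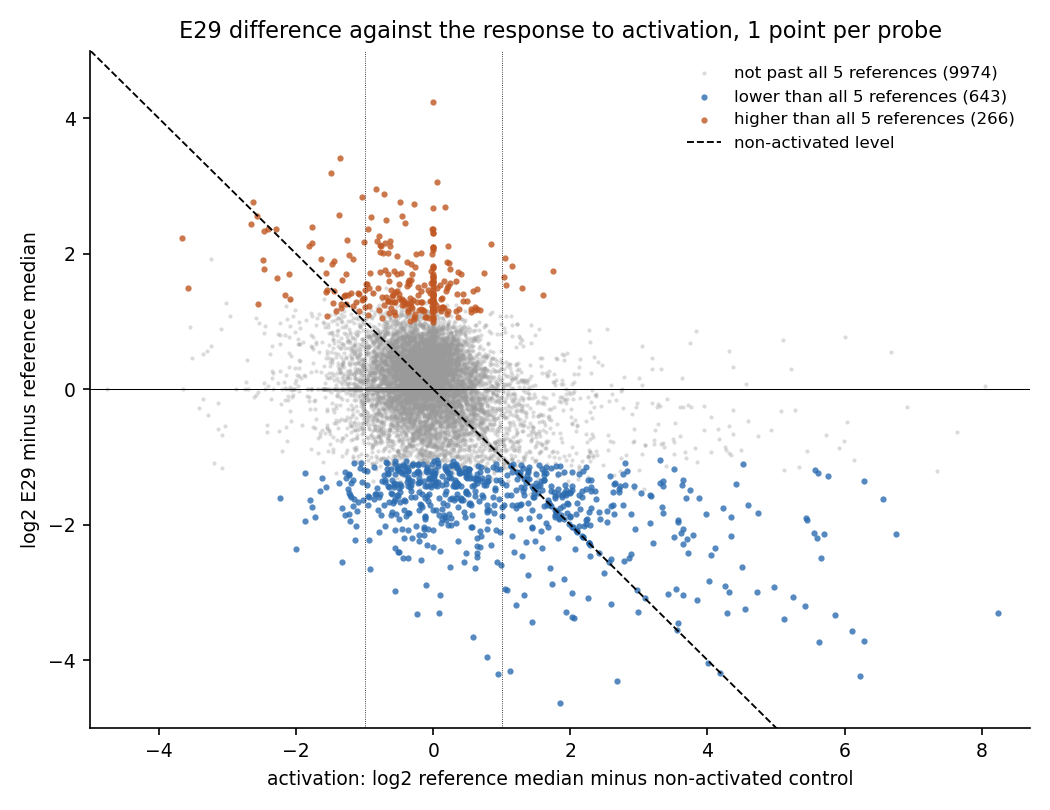
Each point is a probe, with its log2 response to activation (reference median minus non-activated control) on the horizontal axis and its log2 difference in E29 (E29 minus reference median) on the vertical axis, colours marking probes called lower or higher. Called falls spread over the induced side, where 282 of 822 probes fell (34.3%), and over the neutral middle, where 224 of 7654 did (2.93%). Over all probes classified 5.91% fell.

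Cytokines were split, with a few collapsing and others near the reference level. On the list of inflammatory cytokines and enzymes, 5 of 15 tested genes fell and 1 rose, with a median log2 difference of -1.24 beside 0.0713 over all genes. Osm, oncostatin M, a cytokine of the interleukin-6 family, had the largest fall of any named probe. Its intensity was 583 in non-activated cells, 2049 in the activated control, 1611, 2100, 2361 and 2102 in the E14, E18, E21 and E23 arrays, and 84.6 in E29, a 24.8-fold difference. E29 thus lay below the non-activated level as well as below every activated array, the lowest of the other compounds being 1695. A second Osm probe was also called lower, at a log2 difference of -1.68, beside -4.63 at the first. With neqc the call at the second probe was lost, at -1.21.

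Tnf, the early macrophage cytokine, had intensities of 7386, 5804, 6784, 6614 and 6680 in the references in the same order, 342 in non-activated cells and 676 in E29, or 9.88-fold lower. Most of its induction was absent in E29, which came close to the non-activated level. Edn1, the vasoconstrictor peptide endothelin-1, stood at 4118, 3101, 3453, 3892 and 3943 in the references, 36.3 in non-activated cells and 297 in E29, 13.1-fold lower. Nos2, the inducible nitric oxide synthase, stood at 1109, 806, 1282, 990 and 832 in the references, 28.1 in non-activated cells and 125 in E29, 7.95-fold lower. For both genes E29 lay far below the lowest reference and still above the non-activated control.

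The interleukin-1 genes kept much of their expression. Il1a fell 3.07-fold, from 7148 to 11913 in the references to 2839 in E29, against 92.3 without activation. Il1b, with 14729, 10859, 14447, 15029 and 14064 in the references and 6282 in E29, was 2.3-fold under their median but did not pass the rule, since E14 lay within 2-fold of it. Il6 was 517 in E29 and 554 to 1160 in the references and did not pass either. Il1rn, the interleukin-1 receptor antagonist, had 3316 in E29 against 6161 to 6677, also short of the rule.

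Il23a, which encodes the p19 subunit of interleukin-23, was detected in E29 alone of these 7 arrays. Its intensity was 247 in E29 and 10 to 11.7 in the references, at least 4.23-fold higher, with 10 in non-activated cells. A different probe of Il23a stood at 10 on all of them, the lowest value the deposited intensities take. The rise is thus seen by only 1 of 2 probes.

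Chemokines diverged more than any other list in range, from a log2 difference of -3.31 to one of 4.24. Of 12 tested genes, Cxcl10 and Ccl4 fell and Cxcl1 rose, and the median difference was 0.0417, close to that of all genes. Cxcl10 and Cxcl9 are neighbouring genes on chromosome 5 whose products bind the same receptor, CXCR3, on T cells, and both are classical targets of interferon-γ. Cxcl1 and Cxcl2 are neutrophil attractants under NF-κB. The start-site windows of 3 of these chemokines and of Irf1 are printed because these genes carry the clearest contrasts in E29. They run from 250 bases before to 50 after the start, 5′ to 3′, from RefSeq on GRCm38.p6, and capitals mark matches to the ISRE (GAAA, any 2 bases, GAAA), the GAS element (TTCNNNGAA) and the NF-κB consensus, searched on both strands with overlaps allowed.
Cxcl10, chr5:92348840-92349139, minus strand: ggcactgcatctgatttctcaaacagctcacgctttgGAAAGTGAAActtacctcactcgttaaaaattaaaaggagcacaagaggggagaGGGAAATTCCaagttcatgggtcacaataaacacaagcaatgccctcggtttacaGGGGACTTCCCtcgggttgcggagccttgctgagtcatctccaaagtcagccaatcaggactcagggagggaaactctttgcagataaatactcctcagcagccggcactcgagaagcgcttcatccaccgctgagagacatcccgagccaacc
Cxcl9, chr5:92328030-92328329, minus strand: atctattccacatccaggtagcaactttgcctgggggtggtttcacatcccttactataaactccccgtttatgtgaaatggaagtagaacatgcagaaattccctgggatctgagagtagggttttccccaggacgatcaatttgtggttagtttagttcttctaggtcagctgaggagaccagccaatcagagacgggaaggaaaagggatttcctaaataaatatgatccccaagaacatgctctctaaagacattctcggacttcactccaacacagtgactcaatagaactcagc
Irf1, chr11:53769764-53770063, plus strand: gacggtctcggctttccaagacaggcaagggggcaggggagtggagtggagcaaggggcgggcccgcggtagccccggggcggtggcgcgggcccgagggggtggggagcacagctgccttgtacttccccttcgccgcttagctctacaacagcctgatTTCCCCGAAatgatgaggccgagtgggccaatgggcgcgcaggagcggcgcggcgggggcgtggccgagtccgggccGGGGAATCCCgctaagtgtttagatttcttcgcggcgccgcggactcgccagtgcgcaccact
Cxcl1, chr5:90890995-90891294, plus strand: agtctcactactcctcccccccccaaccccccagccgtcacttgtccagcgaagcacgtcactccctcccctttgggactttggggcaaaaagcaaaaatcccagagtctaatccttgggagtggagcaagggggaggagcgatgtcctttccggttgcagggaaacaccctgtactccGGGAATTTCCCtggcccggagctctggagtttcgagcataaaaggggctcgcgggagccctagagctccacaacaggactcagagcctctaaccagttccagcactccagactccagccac
The Cxcl10 window holds an ISRE match and NF-κB matches, the Irf1 window printed a GAS and an NF-κB match, the Cxcl1 window an NF-κB match, and the Cxcl9 window none of these letters, which says nothing about the factors that act on it. A second RefSeq start of Irf1, chr11:53770223-53770522 on the plus strand and not printed, has a window with 0 matches. A match is a description of letters and not a shown binding site.

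Cxcl10 stood at 28.9 in non-activated cells, at 15797, 14461, 14704, 15110 and 15955 in the references and at 1524 in E29, a 9.91-fold fall. Cxcl9 stood at 10 without activation, at 15509, 13136, 13134, 13178 and 14204 in the references and at 13642 in E29, 1.04-fold above their median. E29 therefore lay far outside the references for Cxcl10 and inside their range for Cxcl9. In rank terms, 1226 probes were brighter than Cxcl10 on the E29 array against 13 to 32 on the references, and 45 were brighter than Cxcl9 against 22 to 51. Cxcl9 thus lay near the top of the intensity scale on these arrays, and the part of the scale's upper end in its small difference was not tested.

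Of the CC chemokines, Ccl4 fell, with 6589 in E29 against 14582 to 15587 in the references and 3341 without activation, a 2.3-fold difference that a different probe put at 4.45. Ccl3, a closely related chemokine, stood at 16300 in E29 and 15233 to 16959 in the references. Ccl2, the monocyte attractant, stood at 4403 in E29 and at 4321, 2833, 3992, 4352 and 4210 in the references. For Ccl3 E29 lay inside the range of the references and for Ccl2 just above it. Ccl3 was also near the top of the scale, with 5 probes brighter in E29 and 1 to 22 in the references. The part of the upper end in its small difference was not tested.

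Ccl12 and Cxcl2 lay above all 5 references without reaching 2-fold. Their E29 intensities were 7472 and 2844, 1.46 and 1.66 times the reference medians. Ccl5 was 3794 in E29 against 6964 to 10025, 2.27-fold under the median, and did not pass the rule because E14 lay too near. Ccl7 was 950 against 1150 to 2047 and did not pass either.

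Cxcl1 had the largest rise of all named probes. It was undetected in non-activated cells (10) and in all 5 references (38.7, 10, 51.1, 46.9 and 43.5), was 10 to 38.6 with the other compounds, and reached 945 in E29, at least 16.2-fold higher. E29 was the single array of the 12 on which this probe was detected.

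Interferon-stimulated genes fell more often than they were kept, and none rose. Of 23 tested genes, 14 fell, Cxcl10 among them, with a median log2 difference of -1.71. Irf1, an early transcription factor of the interferon-γ response, fell at 5 of 5 probes. Its brightest probe stood at 625 without activation, at 15387, 14693, 13410, 14139 and 13089 in the references and at 2302 in E29, a 6.14-fold fall. The probe with its largest difference gave 11.8-fold, from 3630 to 4737 down to 335, and on both probes E29 lay below every reference and above the non-activated control.

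Mx1, a dynamin-like antiviral GTPase, was 591, 662, 582, 631 and 563 in the references and 54.0 in E29, where it was not detected, at least 9.07-fold lower. Cd274, which encodes the checkpoint ligand PD-L1, was 7425, 7320, 6869, 6905 and 6395 in the references, 363 without activation and 923 in E29, 7.48-fold lower. In both cases the references lay close together and E29 lay near the non-activated end.

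Ifit2, an RNA-binding antiviral protein, fell 4.57-fold, from 4555 to 4858 in the references to 1031. Irf8, a transcription factor of the macrophage lineage, fell 4.53-fold, from 5740 to 6264 to 1293. Gbp5, a guanylate-binding protein, fell 4.41-fold, from 2587 to 3442 to 590. Smaller falls were those of Mx2 (3.8-fold), Oas1a (3.5-fold), Stat2 (3.26-fold), Socs1 (at least 3.13-fold), Iigp1 (at least 2.79-fold), Gbp3 (2.42-fold) and Igtp (2.35-fold). With scanner signals normalized by neqc, Socs1 and Iigp1 no longer passed, at log2 differences of -1.56 and -1.38. Oas1a belongs to a family of near-identical copies that a probe may not tell apart.

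Other genes of the same list stayed closer to the references. Rsad2, the antiviral enzyme viperin, was 8132 in E29 and 14867 to 16209 in the references. Isg15, a ubiquitin-like modifier, was 4484 against 7528 to 8912, and Gbp2 was 13331 against 15652 to 16471. These 3 lay below all references but within 2-fold of them. Rsad2 and Gbp2 lay near the top of the intensity scale in the references, with 9 to 27 and 5 to 15 probes brighter. On the E29 array 124 and 48 were brighter. The part of the scale's upper end in their small differences was not tested.

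Irf7, the factor that amplifies type I interferon, stood at 38.3 without activation, at 698, 646, 630, 681 and 670 in the references and at 1072 in E29. It lay 1.6-fold above their median and above each of them, and did not pass the rule. The list therefore held members at least 9.07-fold lower and a member above every reference on the same array.

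Of 13 tested genes on the NF-κB feedback list, 6 fell and 0 rose, with a median log2 difference of -0.424. Nfkbia, which encodes the inhibitor IκBα, stood at 573 without activation, at 3213, 2882, 3450, 3726 and 3992 in the references and at 609 in E29, a 5.66-fold fall to about the non-activated level. Tnfaip3, the deubiquitinase A20, was 1649 to 2074 in the references, 196 without activation and 595 in E29, 3.33-fold lower. E29 was the lowest activated array of the 6 for both.

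Rel, the c-Rel subunit, fell 3.91-fold to 74.4, Traf1 fell 3.26-fold, Bcl3 fell 2.78-fold and Tnip1, a partner of A20, fell 2.52-fold. Relb, at 427 in E29 and 424 to 460 in the references, lay inside their range. Nfkb2 was 477 against 332 to 446, above all 5 but within 2-fold. Icam1, an adhesion molecule and an NF-κB target, was 6170 against 6482 to 7815.

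**Figure D3:**
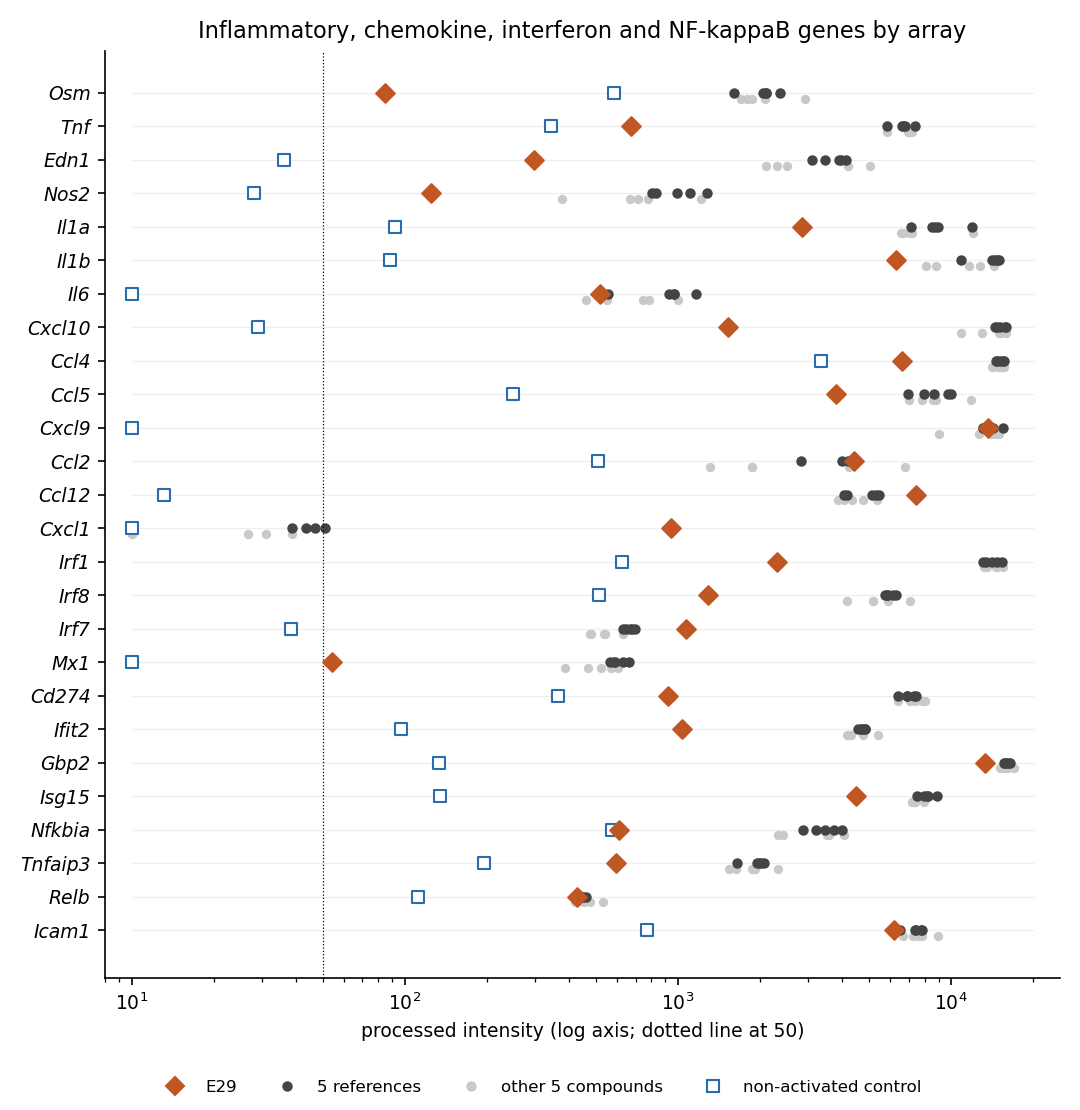
Deposited intensity (log axis) of selected genes on each array, with the non-activated control, the 5 references, the other 5 compounds and E29 marked apart, 1 array per condition. E29 lies far below the references for genes such as Osm, Tnf and Cxcl10, among them for Cxcl9, and above all of them for Cxcl1.

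On the immediate early list, whose genes are transcribed without new protein synthesis, 4 of 10 tested genes fell and 1 rose, with a median of -0.681. Atf3, a stress-induced repressor that limits Toll-like receptor responses, stood at 749 without activation, at 2393, 2576, 3029, 2819 and 2934 in the references and at 402 in E29, 7.01-fold lower. Zfp36, whose product tristetraprolin destabilises cytokine mRNAs, stood at 1436, at 5427, 5569, 5709, 5721 and 5489 and at 1738, a 3.2-fold fall. E29 lay below the non-activated control for Atf3 and slightly above it for Zfp36.

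Dusp1, a MAP kinase phosphatase, fell 5.8-fold, from 1885 to 3274 to 452, and Junb fell 2.61-fold, from 2116 to 2248 to 831. Fosb, of the AP-1 family, was 212 in E29 and 10 to 13.9 in the references, none of which detected it, at least 3.62-fold higher. Fos was 390 in E29, 79.4 to 215 in the references and 972 without activation, and did not pass the rule.

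The largest falls of the array included several genes of the macrophage surface and of transcription. Batf2, an AP-1 family factor induced by interferon-γ, went from 4855, 3735, 3693, 3999 and 3479 to 198 in E29, 18.8-fold lower, and was 10 without activation. Rgs1, a brake on chemokine receptor signalling, fell 18.5-, 17.9- and 15.5-fold at 3 probes. At the first of these it was 1373 to 1982 in the references, 827 without activation and 86.3 in E29, below the non-activated level.

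Hcar2, the receptor for niacin and β-hydroxybutyrate, fell 16.5-fold, from 2372 to 3137 to 180, against 185 without activation. Themis2, a macrophage signalling adaptor, was 1274, 1034, 998, 890 and 944 in the references and 50.3 in E29, undetected there and at least 15.3-fold lower. Slamf7, a surface receptor, was 774 to 1351 in the references and 12.9 in E29, at least 14-fold lower. AA467197, a transcript known here by its clone name, fell 13.3-fold, from 1735 to 2609 to 186.

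Cebpb, the C/EBPβ transcription factor of macrophage inflammatory genes, differed from these in being high without activation. It stood at 5633 in the non-activated control, at 8711, 9475, 8463, 8365 and 7989 in the references, at 7393 to 11531 with the other compounds and at 673 in E29, 12.6-fold lower. E29 lay below all of the other 11 arrays by a wide margin.

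Further falls, picked here after their values were seen, touched cytokine feedback and interferon effectors. Socs3, an inhibitor of JAK kinases, fell 10.5-fold, from 4290 to 5551 to 505. Ubd, a ubiquitin-like protein, fell 9.44-fold and Ifitm3, an antiviral membrane protein, 8.36-fold. Il10ra, the receptor chain for interleukin-10, was at least 7.51-fold lower, the protease gene Mmp13 7.14-fold, complement factor gene Cfb at least 4.52-fold and Ido1, a tryptophan-degrading enzyme, at least 3.03-fold.

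Among genes that activation left within 1.5-fold, also picked after their values were seen, Bcl6, a transcriptional repressor, went from 615, 509, 501, 449 and 399 to 37.9 in E29, where it was not detected, at least 7.69-fold lower. Sh3bp2, an adaptor protein, was 1375 to 1647 in the references, 1716 without activation and 215 in E29, 7.43-fold lower. Txnip, an inhibitor of thioredoxin, fell 5.74-fold, from 1430 to 1558 to 263, against 1711 without activation. These 3 genes were lower in E29 than in resting cells too, unlike Tnf or Nfkbia.

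Ccnq fell 7.89-fold, Hilpda, a lipid droplet protein, 5.88-fold and the growth factor gene Csf1 3.7-fold, while Wfs1 was at least 6.3-fold lower and Nrf1, nuclear respiratory factor 1, at least 4.3-fold. Some genes that activation had lowered went further down. Slc40a1, the iron exporter ferroportin, stood at 4268 without activation, at 1938, 2663, 1462, 1772 and 1990 in the references and at 416 in E29, 4.66-fold lower. Irf2bpl fell 5.84-fold in the same class.

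Stress lists differed in how many genes were called, but they are short. Over all 7302 genes 6.66% fell and 2.59% rose, so 0 calls on a short list lies near the general share. None of 9 tested NRF2 targets passed by its brightest probe, with a median of -0.266. A dimmer probe of Prdx1, on this list, was called lower at a log2 difference of -1.71. With neqc that call was lost, at -1.30. Hmox1, haem oxygenase 1, was 1127 in E29 and 1321, 3607, 1223, 1736 and 2146 in the references, so the spread among the references exceeded their distance to E29. The E14 reference was also the highest reference for Srxn1 (4591, the others 2456 to 3363) and Gclm (3691, the others 1836 to 2297). None of 7 heat shock genes passed, with a median of 0.0713.

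Of 12 unfolded protein and integrated stress genes, 2 fell and 2 rose, or 4 genes called, with a median of -0.466. Atf4, the central factor of the integrated stress response, was 1489 without activation, 2006, 2741, 2551, 2316 and 2288 in the references and 433 in E29, 5.35-fold lower. Xbp1 fell 2.35-fold, from 1765 to 2065 to 864. Dnajb9, a chaperone of the endoplasmic reticulum, rose 5.51-fold, from 213 to 272 to 1275, and Ddit4, an inhibitor of mTORC1, was 158 against 25.4 to 36.3, at least 2.69-fold higher.

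Mdm2, the ubiquitin ligase of p53, fell 3.76-fold, from 2575 to 2967 to 691, and was the single gene to pass among 6 tested p53 targets, whose median was -0.722. Cdkn1a, which encodes p21, was 4885 in E29 and 4394 to 5900 in the references, inside their range. In the cell cycle list, with 11 tested and a median of 0.373, Ccnd1 fell 3.21-fold (897 to 1414 in the references, 394 in E29) and E2f1 rose 3.74-fold (184 to 240, and 711).

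In the cholesterol synthesis list Insig1 fell, with 403 in E29 against 851 to 1115, 1 of 9 tested with a median of -0.185. In the glycolysis and hypoxia list of 9 (median 0.274), Hk2, a hexokinase, fell 2.53-fold, from 5216 to 5762 to 2130, and Vegfa rose 2.93-fold, from 88.3 to 198 to 501. In the autophagy and lysosome list of 9 (median 0.252), Ctsl, the protease cathepsin L, rose 2.34-fold.

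Of 8 tested microglia and macrophage genes, 2 fell and 0 rose, with a median of 0.134. P2ry6, the UDP receptor that triggers phagocytosis in microglia, stood at 890 without activation, at 1096, 673, 963, 942 and 650 in the references and at 95.1 in E29, 9.9-fold lower. Mertk, a receptor for the clearance of apoptotic cells, fell 4.22-fold, from 271 to 533 to 69.8. Aif1 (794 against 410 to 569), Trem2 (2843 against 1974 to 2305) and Tyrobp (3163 against 2061 to 2354) lay above all 5 references but within 2-fold. The falls of P2ry6 and Mertk were therefore not shared by these lineage markers.

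**Figure D4:**
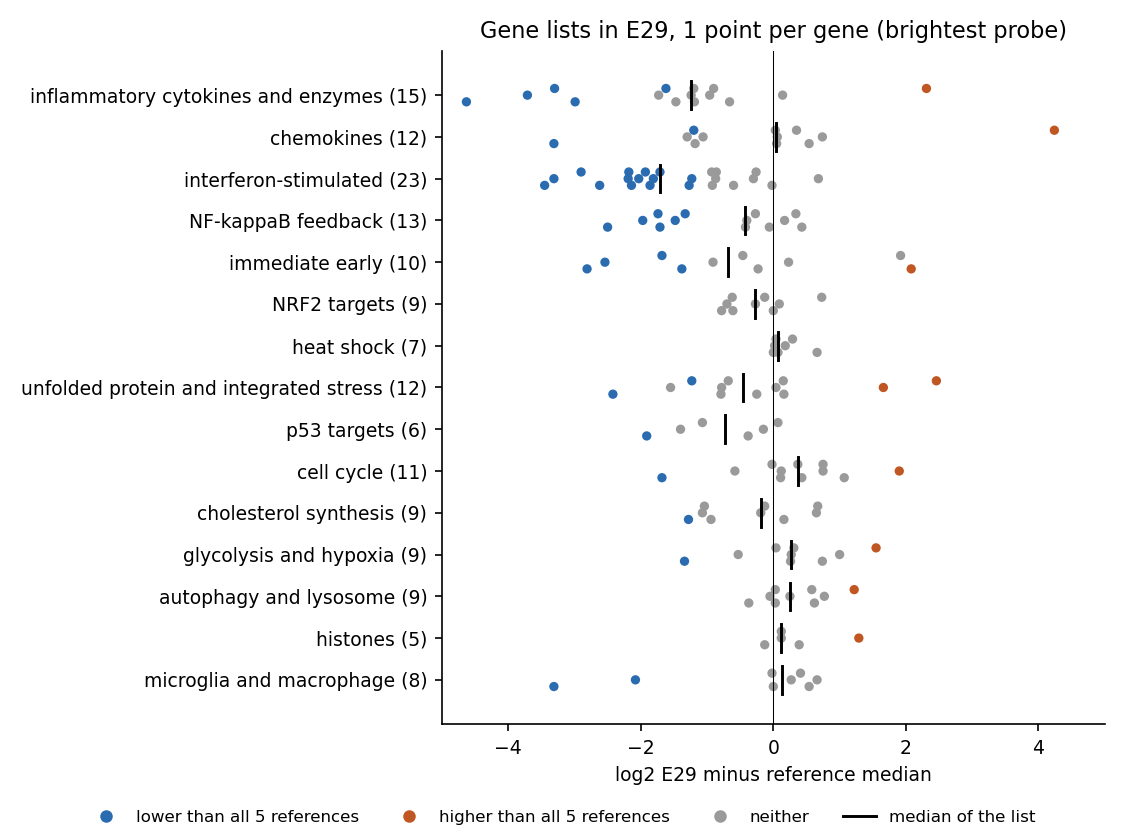
Log2 difference of E29 from the reference median for each tested gene of the 15 lists, with the list median marked and called genes coloured. The interferon-stimulated list (median -1.71, 14 of 23 lower) and the inflammatory list (-1.24, 5 of 15) lie lowest, while the heat shock median (0.0713) equals that of all 7302 genes.

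The transcripts that rose formed a different set, most of them undetected or dim in the references. Lbh, a transcriptional regulator, was detected in all 5 references, at 787 without activation, 125, 155, 94.8, 128 and 146 in the references and 872 in E29, 6.83-fold higher. Zswim3, detected in 2 references, rose at least 8.78-fold, with 36.9 to 62.6 in the references and 532 in E29, against 128 without activation. Pik3r3, a regulatory subunit of phosphoinositide 3-kinase, was also detected in 2 references. It rose at least 7.75-fold, with 29.8 to 68.1 in the references and 470 in E29, against 144. For all 3 genes activation had lowered the level, and E29 lay above the non-activated one.

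Hexim1, which holds the elongation kinase P-TEFb in an inactive complex, was 24.0, 20.9, 21.9, 34.2 and 32.7 in the references, 82.5 without activation and 369 in E29, at least 6.31-fold higher. Rrm2, a subunit of ribonucleotide reductase, was 51.5, 74.5, 70.2, 52.0 and 62.1, 127 and 445. With 3 references detecting it, the rise was at least 6.52-fold. On both probes E29 exceeded every reference and the non-activated control.

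Neurl3 rose at least 7.43-fold at a probe detected in 1 reference, from at most 88.3 to 435, and 6.48-fold at another. Frat2, which binds the kinase GSK3, was at least 6.62-fold higher, at 387, Cirbp, a cold-inducible RNA-binding protein, at least 5.69-fold, and the probe ILMN_2642052, which has no gene name here, at least 5.8-fold. Atf2 was at least 5.26-fold higher at a dim probe and passed at a second, with 604 in E29 against 102 to 140. Its brightest probe, at 1416 against 712 to 809, did not pass, so 2 of 3 probes were called.

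Other rises, picked after their values were seen, were measured well above the detection limit. Zfp36l1, a relative of tristetraprolin, was 3009 without activation, 501, 312, 457, 479 and 476 in the references and 2590 in E29, 5.44-fold higher, so that E29 lay near the non-activated level. Ezh2, the histone H3 lysine 27 methyltransferase, was 219 without activation, 193 to 233.5 in the references and 1109 in E29, 5.15-fold higher, above all other arrays. Ndrg1, a hypoxia-responsive gene, was 792 to 1282 in the references and 3442 in E29, 3.84-fold higher, against 433 without activation.

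Plk3, a stress-responsive kinase, rose 5.97-fold, from 110 to 149 to 743, and Ffar4, a receptor for long-chain fatty acids, 5.14-fold, from 92.6 to 158 to 540. Maff, a small Maf factor, rose 3.37-fold, from 143 to 188 to 565. Dgat2, an enzyme of triglyceride synthesis, rose 3.93-fold, from 320 to 400 to 1340. Cxcr4, undetected in the references, was 190 in E29 and 112 without activation, at least 3.24-fold higher than in the references.

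Histone transcripts moved in opposite directions by class. On the histone list 1 of 5 tested genes rose, H4c9, with a median of 0.124. The classes were grouped after their values were seen, and their near-identical copies may share probes, so the counts are not of independent genes. Over all 7302 genes, 6.66% fell and 2.59% rose. Of 12 tested H2A genes 7 fell and 2 rose, while of 7 H4 genes 6 rose, of 6 H3 genes 4 rose and of 10 H2B genes 2 rose, with 0 falls among H2B, H3 and H4. With neqc the H2B gene H2bc18 no longer passed. H2ac24, the brightest, was 9710 without activation, 4776, 4419, 4756, 4757 and 5251 in the references and 1537 in E29, 3.09-fold lower. H4c8 was 155 without activation, 169, 164, 204, 216 and 211 in the references and 661 in E29, 3.24-fold higher.

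**Figure D5:**
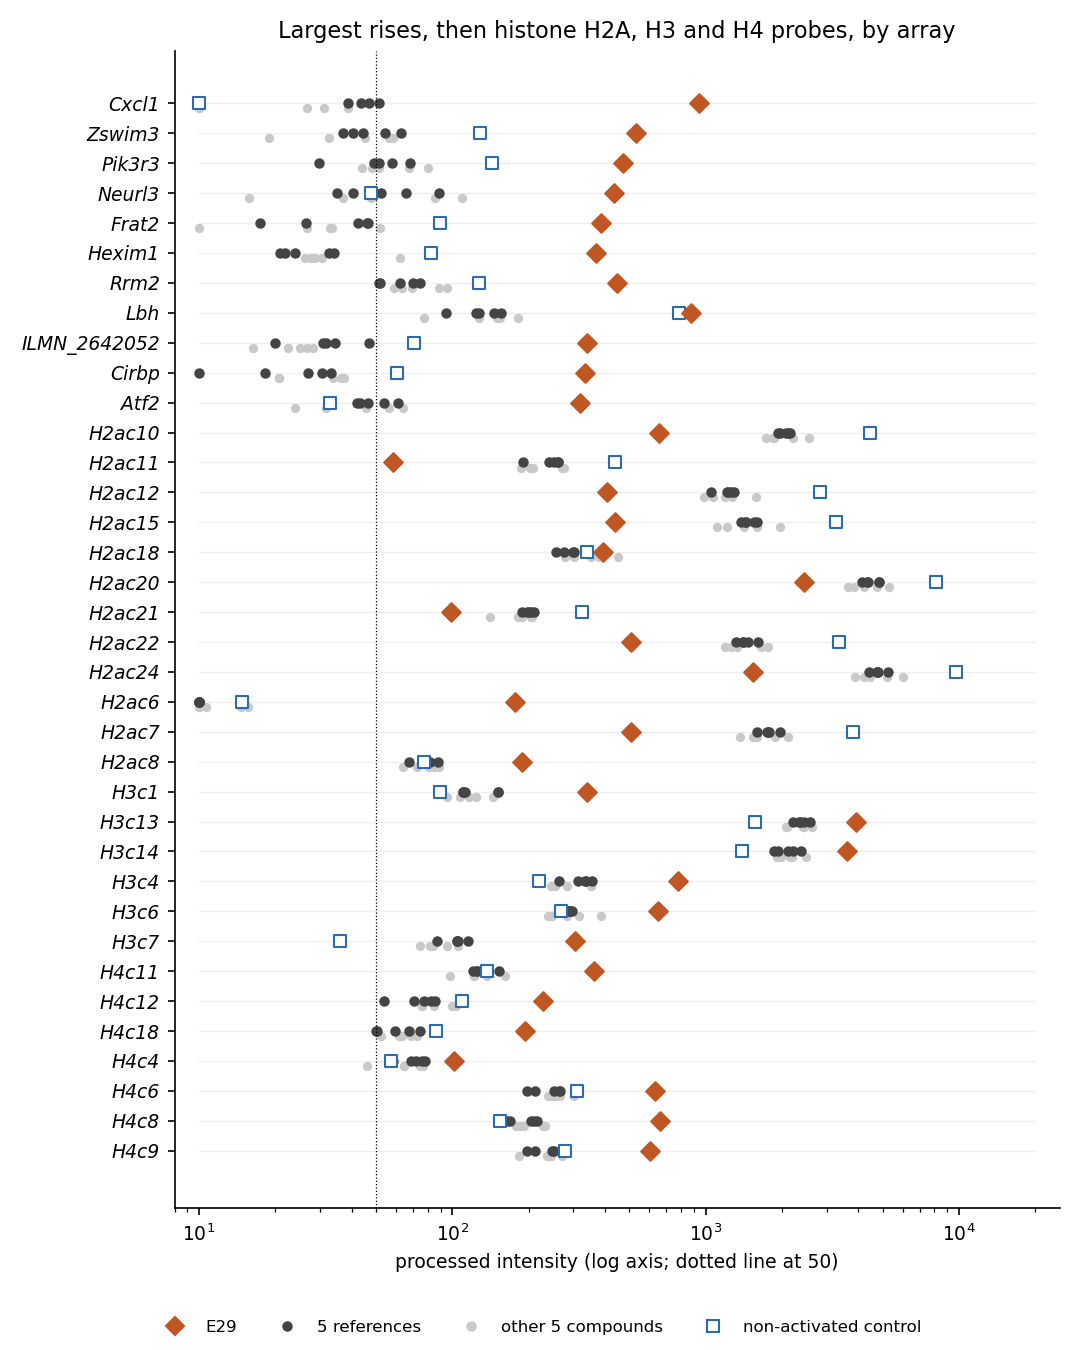
Deposited intensity (log axis) on each array of the named largest rises and of the tested H2A, H3 and H4 histone genes, with the non-activated control, the 5 references, the other 5 compounds and E29 marked apart, 1 array per condition. Cxcl1 reaches 945 in E29 and at most 51.1 in the references, Lbh lies near the non-activated control, and H2A genes such as H2ac24 lie left of the references where H4 genes such as H4c8 lie right of them.

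Among start-site windows, the ISRE letters were found in 13.3% of 203 windows (150 genes) of induced genes that fell in E29, 7.89% of 380 windows of induced genes that were not called, 2.29% of 306 windows of genes that fell without being induced and 1.55% of 194 windows of genes that rose. The share was 3.24% over 7799 windows of tested genes and 3.44% over all 32851 windows. For the GAS element the shares were 14.3%, 7.37%, 7.84% and 5.67% in the same order, 7.1% over tested genes and 8.3% over all. For the NF-κB consensus they were 13.3%, 14.2%, 11.1% and 9.79%, with 10.3% and 8.46%. The ISRE and GAS letters were thus more frequent in induced genes that fell than in induced genes that did not, whereas the NF-κB letters were about equally frequent in both, a description of these windows without a test.

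The base content of the windows differed less. Median GC content was 58.3% in induced genes that fell, 59.3% in induced genes not called, 62.7% in genes that fell without induction and 59.5% in genes that rose, with 60.3% over tested genes. The Cxcl10 and Irf1 windows printed above belong to the first group, the Cxcl9 window to the second and the Cxcl1 window to the fourth.

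The called probes were also set beside the compounds outside the reference set, whose arrays the rule had not used. The E29 values that selected the probes are used again here, and these arrays lay close to the references. The counts therefore describe the probes and are no separate support. Of the 643 probes that fell, 639 also lay below all 5 of E4, E5, E19, E20 and E33, and 449 (69.8%) did so by at least 2-fold. Of the 266 that rose, 265 lay above all 5 and 182 (68.4%) by at least 2-fold. Taken on their own as references, these 5 arrays gave 488 lower probes (4.59% of 10625) and 200 higher ones (1.88%). With doses unstated, E29 and these compounds cannot be compared at matched doses.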

How the data were processed

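RNA from BV2 cells was extracted with Qiagen RNeasy kits, and 400 ng was amplified by in vitro transcription for 12 h, per the labels' protocols, before hybridisation to single-colour Illumina bead arrays. Per the file headers, the deposited scanner table holds the mean bead intensity of each probe and a detection p-value. GenomeStudio 2010.3 was used, per the submitters' processing notes. The values used here are the authors' processed intensity values, which are linear and background-subtracted. How they were normalized no label or header says. Within an array their ranks equalled those of the scanner signals (rho 1.0000, Spearman), and they had array medians of 14.9 to 15.0 and stood at their lowest value, 10, for 45.1% to 45.2% of probes.

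Deposited intensities were raised to 50 and put on the log2 scale. A probe was detected at a deposited detection p-value under 0.01, and detection limits (the lowest detected value of an array) were 48.4 to 68.3, with 65.2 in E29. Folds of undetected probes used these limits. E29 was called at 2-fold past all 5 references. No test was run, since each condition had 1 array, and that number of arrays sets the precision. Gene names came from GEO's platform annotation, which gave 1 symbol for 23978 of the 25697 probes, several for 0 and none for 1719. Of these, 23962 matched RefSeq by Entrez ID, and 0 symbols changed.

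Named genes were the 12 largest rises and 12 largest falls past all 5 references and the members of 15 gene lists. The members and lists were chosen with earlier results of these data known. Reading a gene by the probe with the highest mean over 12 arrays, the histone classes and other families were chosen after the values were seen. Alternatives included neqc in limma 3.58.1 (R 4.3.3, offset 16) on the scanner signals. Calling was tried on simulated arrays with known changes planted in bright probes only. The simulated noise came from the spread of E14, E18, E21 and E23, which were chosen as like arrays. It therefore does not cover changes in dim probes or a wider spread between arrays. Other tools were Python 3.11.15, numpy 2.4.6, pandas 2.3.3, scipy 1.17.1 and matplotlib 3.10.9.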

Additional observations from a re-analysis of the deposited data

How the results depend on the processing

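No paired analysis was possible because there was 1 array a condition. The floor at each array's detection limit and the list counts with neqc were chosen after seeing the data. No median changed sign under any alternative tried. Named probes were rechecked only where called, with neqc and with arrays scaled to a common median of bright probes, and none changed sign. At 2-fold, lower probes made up 68.9% to 77% of the probes called past every reference, across scalings, floors, filters and choices of reference. Against the reference median at 1.5-fold, 1733 probes were lower and 1722 higher, and against the activated control 1828 and 1841. With neqc 596 probes were lower and 239 higher in E29, of which 548 and 209 were also called with the deposited values, and 0 were called the other way. All 230 called probes of the named genes and families kept their sign with neqc, and 198 kept their call. On the lists neqc gave 12 falls in place of 14 among interferon-stimulated genes, 6 in place of 5 among inflammatory ones, 3 in place of 2 among chemokines and 2 in place of 1 in cholesterol synthesis. The median E29 difference over tested probes was 0.0565 to 0.119 across scalings, so changes are relative to that shift. Dim probes limit the counts, since raising the floor compresses them by construction; the cause of the other changes was not tested. Against 643 lower and 266 higher probes in E29, quantile normalization without background correction gave 298 and 92, a threshold of 1.5-fold 1302 and 1005, and one of 3-fold 223 and 79. The higher count was 404 with values raised to 20, 163 raised to 100 and 156 among probes above the floor on all arrays. Leaving out 1 reference gave 659 to 692 lower and 279 to 293 higher. The count against the reference median (1326) was 2061 raised to 20, 579 with quantile normalization, 3455 at 1.5-fold, 428 at 3-fold and 1305 to 1363 without 1 reference. Against the activated control (1463) it was 2334, 653, 3669 and 476 under the first 4. The induced median (-0.876) was -0.746 above the floor on all arrays, -0.798 with detection limits and -1.18 with classes at 4-fold. The repressed median (0.163) was 0.109 raised to 100, 0.125 with quantile normalization, 0.244 above the floor, 0.0951 with the other 5 compounds as references and 0.0903 with classes set by them. The remaining share (56.7%) was 52.4% with quantile normalization, 60.5% above the floor and 60.3% with classes at 4-fold. Induced probes made up 56%, 34.2% and 23.6% of the falls under these 3 settings. Repressed probes among the rises (19.9%) were 28% raised to 20, 15.2% with quantile normalization and 5.64% with classes at 4-fold. The non-activated control was lower at 1081 probes at 1.5-fold, 387 at 3-fold and 673 to 690 without 1 reference, and higher at 203 with quantile normalization, 1241, 138 and 438 to 467.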

Other observations

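Beyond the lists above, gene families were grouped after the values had been seen, and their counts describe the E29 array with no test. Over all 7302 genes, 6.66% fell and 2.59% rose. Regulators of the response itself were among the transcripts lower in E29. Of 8 tested interferon regulatory factors 5 fell, namely Irf1, Irf2, Irf5, Irf8 and Irf9, and of 8 SOCS family genes 4 fell, Socs1 among them, which did not pass with neqc. Cish, an inhibitor of STAT5 signalling, was 69.0 without activation, 3667, 3161, 3065, 3383 and 3268 in the references and 1434 in E29. Of 18 genes of Toll-like and interleukin-1 receptor signalling 6 fell and 0 rose, and 1 of the 6, Rnf31, did not pass with neqc. Irak2, a kinase of the MyD88 complex, was 881 without activation, 1739, 1675, 1719, 1641 and 1609 in the references and 286 in E29, and Malt1, a protease on the way to NF-κB, was 857 to 1129 in the references and 305 in E29. Myd88, at 4878 against 6235 to 6583, did not pass the rule.

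Keap1, the adaptor that marks NRF2 for degradation, was lower at all 4 of its tested probes, the brightest standing at 793 without activation, 762, 811, 809, 771 and 751 in the references and 235 in E29. Nfe2l2, which encodes NRF2, was 467 to 637 in the references and 218 in E29. On the same array 0 of 9 NRF2 targets passed the rule by their brightest probes. With 6.66% of all genes lower and 2.59% higher, that count is near the general share and no contrast is drawn. Max, the obligate partner of MYC, was 3302 to 3579 in the references and 1358 in E29, while Mxi1, which competes with MYC for MAX, was 59.8 to 96.9 in the references and 195 in E29. Mxd3 and Mxd4, of the same group as Mxi1, rose from levels undetected in the references to 159 and 112, of which Mxd4 did not pass with neqc, at a log2 difference of 0.81.

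Of 20 tested genes of DNA synthesis and licensing, 4 rose (Rrm2, Tk1, Ung and Uhrf1) and 0 fell, with a median log2 difference of 0.426. Uhrf1, a cofactor of maintenance DNA methylation, was 860 without activation, 624, 727, 693, 599 and 665 in the references and 1592 in E29. Of 13 BCL2 family genes 5 fell and 0 rose, where 6.66% of all genes fell and 2.59% rose. Bid, a BH3-only death agonist, was 1037 without activation, 1533, 1763, 1613, 1486 and 1343 in the references and 375 in E29, and Mcl1, a survival protein, was 2931 to 3677 in the references and 1366 in E29. Members that promote death and members that oppose it thus both fell.

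Antiviral families were mixed by member. Parp14 was 6125 to 7171 in the references and 2955 in E29, and Trim56 was 778 to 960 in the references and 213 in E29. Ifitm1, undetected in the references at 19.04 to 35.5, was 124 in E29. With neqc this probe did not pass, at a log2 difference of 0.95. Another Ifitm1 probe called higher kept its call with neqc, at 1.46. Of 5 tested P2Y receptors P2ry6 fell and P2ry13 rose, the latter from 10 to 20.7, undetected, in the references to 239 in E29. Both Dgat genes of triglyceride synthesis rose. The activated control itself stood apart from the other 4 references at 2 lower probes, both of Cd207 (langerin), which was undetected at 10 in E29 and in the non-activated control, 138 in the activated control and 325 to 715 in the other 4 references at the probe called in E29. With neqc that probe was not called in E29.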
